A study of Homo sapiens with 8 samples.

Results

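The genes described here act in the G2 phase and in mitosis, and were followed on 8 Affymetrix Human Gene 1.0 ST arrays of SHSY5Y cells, a human neuroblastoma line of neural crest origin. They were named as a list of 59 symbols and matched to rows of the value table that carry exactly 1 gene symbol. Of the 59, 58 were measured, among 18377 genes in all. CENPA, the centromeric histone, has no row of its own, and KIFC1 and BIRC5 have 2 rows each, of which the one with the higher mean stands for the gene. The arrays cover 4 groups of 2 biological replicates: PLKO cells undifferentiated (NDF), PLKO cells differentiated (DF), V71 cells undifferentiated and V71 cells differentiated. PLKO and V71 are the codes in the sample titles for stable lines made with viruses, one line with an shRNA and the other with the empty vector, both held under puromycin and plated on laminin. NDF cells grew in medium with 10% serum. DF cells received 10 µM retinoic acid for 5 days and then 2 nM BDNF, a neurotrophin, in serum-free medium for 3 days. Each line is a single stable line, so its differences from the other hold for that pair of lines. The labels call the V71 samples control and the PLKO samples shRNA, while the methods give pLKO.1-Puro as the control vector. Which line carries the shRNA is therefore not settled here, the lines keep their title codes, and each difference between them is V71 minus PLKO.

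Values are log2 expression from the robust multi-average method (RMA), so a difference of 1 is a doubling, and they compare 1 gene between arrays but not different genes with each other. A gene was called where limma's moderated test gave an adjusted p under 0.05 (Benjamini-Hochberg over all 28869 rows) and the fold change was at least 1.5, which is 0.58 on the log2 scale. Array medians lay between 4.60 and 4.68, and arrays of a group correlated at 0.9947 or more over all rows (Spearman), and arrays of different groups at 0.9931 or less. The mean level of 11 measured markers of the noradrenergic neuroblast lay between 7.65 and 8.13 on the arrays. Among them HAND2, GATA3, ISL1, PHOX2A and DBH were between 7.34 and 9.77 on every array. TH, which makes the catecholamine precursor, was at 4.21 to 4.60.

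Cells enter mitosis when cyclin-dependent kinase 1, joined to a B-type cyclin, is switched on. Mitotic kinases then set up the spindle, the kinetochores couple chromosomes to its microtubules, and a checkpoint holds back the anaphase-promoting complex until every chromosome is attached. The transcripts of these factors rise together in G2 and are low in cells that have left the cycle. Many of their promoters hold the cell cycle genes homology region (CHR), to which the DREAM complex binds in resting cells and MuvB with B-MYB and FOXM1 in dividing ones, with CCAAT boxes, sites of NF-Y, upstream of it.

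The promoters are described beside the expression values, and a link between them was not tested. Sequences of 250 bases before to 50 bases after gene starts were found in RefSeq (GRCh38.p14) for 50 of the 59 genes, with 61 starts. The CHR letters TTTGAA, read on both strands, occurred in 62.3% of these 61 promoters and in 15.2% of all 35116 promoters of the same length. The CCAAT letters, also on both strands, occurred in 75.4% and 34.6%, and both motifs together in 50.8% and 5.90%. Within the window from 60 bases before the start to its end, TTTGAA was found in 55.7% of the members' promoters against 5.03% of all. In 114 promoters of other genes of G2 and mitosis, TTTGAA was found in 39.5%, CCAAT in 56.1%, both in 27.2%, and TTTGAA in that window in 22.8%. In 63 promoters of S phase genes, TTTGAA was found in 3.17% and CCAAT in 54.0%. The median GC content was 62.0% for the members, 65.0% for the S phase genes and 58.7% for all promoters. Neighbouring matches of both motifs can share end letters, and a match describes the sequence only. The 150 bases before the start are given for 7 members, with both motifs in capitals and CCAAT written ATTGG where it lies on the other strand. CCNB2, PLK1 and KIF4A show the usual order of CCAAT and then CHR, and HMMR and PRC1 had calls for the interaction described further on. INCENP holds both motifs and changed by -0.56 in PLKO and -0.65 in V71 upon differentiation. KIF20A holds no TTTGAA and changed by -2.58 and -1.91, and it also had a call for the interaction, at 0.67.
CCNB2, chr15:59104996-59105145, plus strand: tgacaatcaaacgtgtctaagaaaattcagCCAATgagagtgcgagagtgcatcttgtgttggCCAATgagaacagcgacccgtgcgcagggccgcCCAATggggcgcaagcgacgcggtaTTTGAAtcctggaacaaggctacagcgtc
PLK1, chr16:23678739-23678888, plus strand: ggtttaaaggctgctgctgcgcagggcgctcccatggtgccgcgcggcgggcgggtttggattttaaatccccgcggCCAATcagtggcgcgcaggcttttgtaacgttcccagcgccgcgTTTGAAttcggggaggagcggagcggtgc
KIF4A, chrX:70289954-70290103, plus strand: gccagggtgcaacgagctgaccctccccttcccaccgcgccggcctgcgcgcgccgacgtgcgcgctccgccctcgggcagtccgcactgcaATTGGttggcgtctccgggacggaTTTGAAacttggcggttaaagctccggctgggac
HMMR, chr5:163460482-163460631, plus strand: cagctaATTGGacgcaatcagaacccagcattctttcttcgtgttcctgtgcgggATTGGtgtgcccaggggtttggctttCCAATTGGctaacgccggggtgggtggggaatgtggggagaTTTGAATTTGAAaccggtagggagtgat
PRC1, chr15:90994536-90994685, minus strand: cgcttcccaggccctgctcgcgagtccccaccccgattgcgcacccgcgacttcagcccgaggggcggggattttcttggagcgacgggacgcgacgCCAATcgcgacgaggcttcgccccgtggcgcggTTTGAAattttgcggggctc
INCENP, chr11:62123861-62124010, plus strand: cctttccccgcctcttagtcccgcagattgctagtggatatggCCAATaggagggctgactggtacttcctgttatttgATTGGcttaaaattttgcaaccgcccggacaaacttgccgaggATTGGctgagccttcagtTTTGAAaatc
KIF20A, chr5:138178962-138179111, plus strand: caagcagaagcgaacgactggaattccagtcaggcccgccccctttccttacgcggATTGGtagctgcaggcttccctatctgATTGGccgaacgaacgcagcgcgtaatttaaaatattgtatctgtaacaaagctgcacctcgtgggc
In CCNB2 and PLK1 the first base of TTTGAA lies 29 bases before the start, with the nearest CCAAT at 54 and 73 bases. HMMR holds TTTGAA end to end at 28 and 22 bases before its start. KIF20A holds CCAAT at 94 and 67 bases and no TTTGAA in this window.

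**Figure D1:**
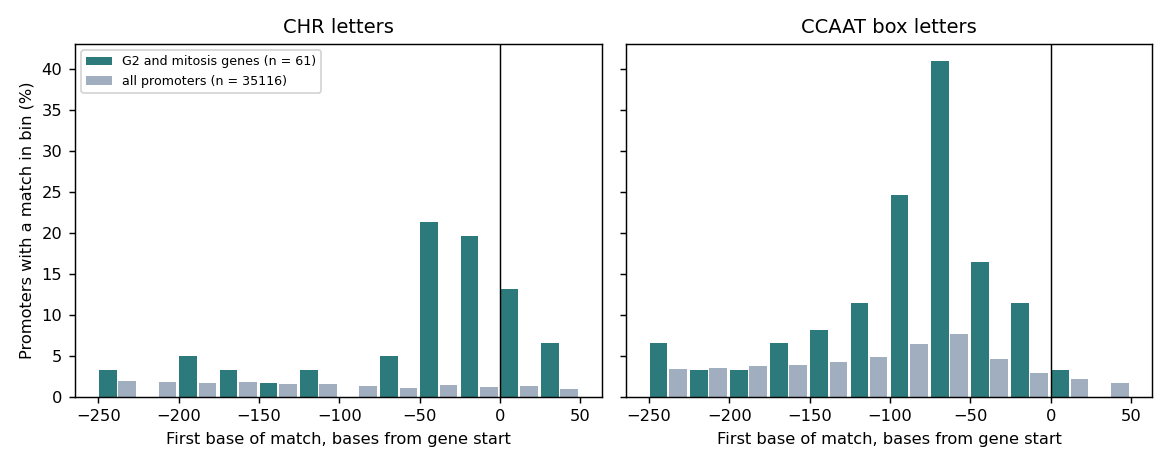
Share of promoters (percent, y axis) with a match to the CHR letters (left) and the CCAAT letters (right) in bins of 25 bases, by distance of the match from the gene start (x axis), for the 61 promoters of the members and all 35116 promoters. CHR matches of the members are most frequent in the bins from 50 bases before the start on, and CCAAT matches further upstream.

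Upon differentiation the G2 and mitosis genes fell in both lines. In the PLKO line 57 of 58 members fell and none rose, where 4.16% of the 18377 genes were called lower and 2.88% higher. In the V71 line 56 of 58 fell and none rose, where 3.55% of all genes were called lower and 3.98% higher. The median change was -1.95 on the log2 scale in PLKO, from -3.19 for HMMR to -0.56 for INCENP, which leaves a median of 25.9% of the NDF level. In V71 the median change was -1.42, from -1.92 for HMMR to -0.43 for RACGAP1, which leaves 37.4%. Over all genes the median was 0.01 in PLKO and -0.004 in V71. On all 58 genes the DF arrays lay below the NDF arrays of the same line without overlap, and 25.9% of all genes did so in PLKO and 27.3% in V71. These are bulk samples, so fewer dividing cells and less of these transcripts in each dividing cell cannot be told apart. The exceptions to the calls were INCENP in PLKO, and CDC25B and RACGAP1 in V71, each with an adjusted p under 0.05 but a fold under 1.5.

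**Figure D2:**
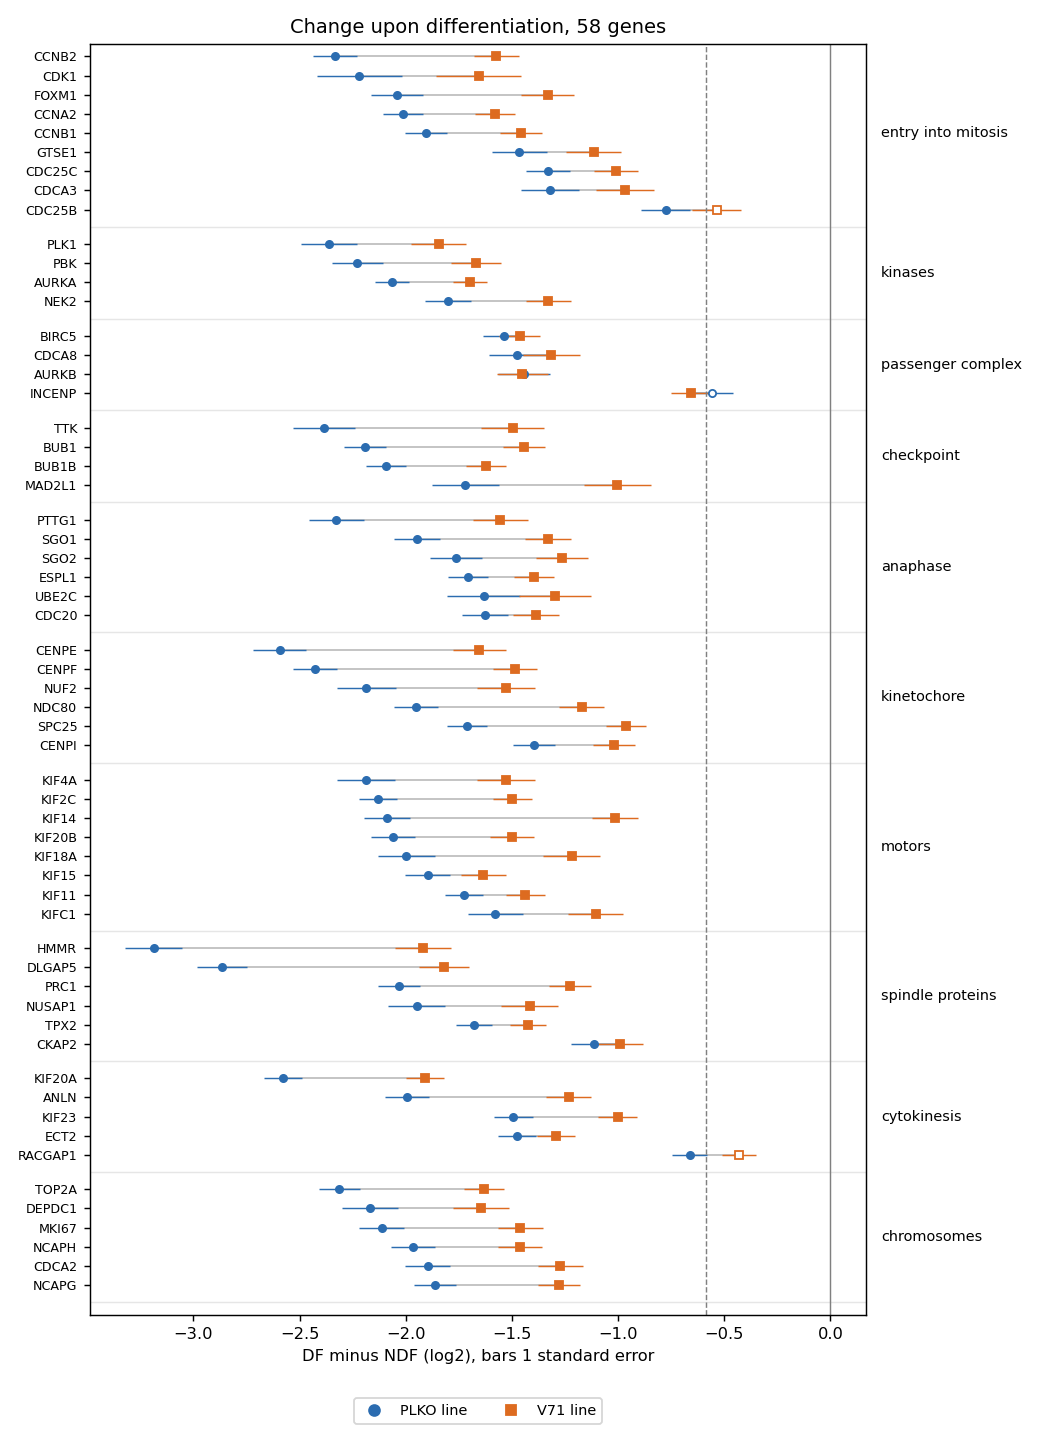
Change upon differentiation (DF minus NDF, log2, x axis) of the 58 members, grouped by role, in PLKO (blue circles) and V71 (orange squares), with bars of 1 standard error. Filled symbols were called, the dashed line marks a fold of 1.5, and the PLKO symbol lies further left than the V71 symbol for 56 members.

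Before differentiation the differences between the lines in these genes were small, and most lay above 0. The mean log2 level of the members was 7.27 to 7.28 in PLKO NDF and 7.39 to 7.43 in V71 NDF. None of the 58 members was called in NDF by limma, where 0.615% of all genes were called higher and 1.54% lower in V71, and none without moderation of the variance. At an unadjusted p under 0.05, 13 members were higher in V71 and none lower, where 7.19% of all genes were higher at that p. The median difference was 0.15 on the log2 scale, from -0.26 for MAD2L1 to 0.44 for CDC25B, with 47 members above 0 and 11 below. The NDF arrays of the lines overlapped for some members, such as BUB1, CENPF and KIF14. For others, such as KIF20A, AURKB and BIRC5, both V71 NDF arrays lay above both PLKO NDF arrays. The 95% interval of the difference lay within a fold of 1.5 in either direction for 53 members and reached past it for 5. AURKA had an adjusted p under 0.05, at 0.36 (standard error 0.08, adjusted p = 0.0471), a fold under 1.5. Without regard to the fold, 1.06% of all genes were higher in V71 at an adjusted p under 0.05.

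After differentiation 36 of the 58 members were higher in V71 than in PLKO and none was lower, where 1.81% of all genes were called higher and 1.26% lower. The median difference was 0.67 on the log2 scale, a fold of 1.60, against 0.01 over all genes, and the values ran from 0.00 for INCENP to 1.18 for DLGAP5. For 56 members both V71 DF arrays lay above both PLKO DF arrays, as they did for 24.6% of all genes, and the exceptions were INCENP and RACGAP1. On every member the V71 DF arrays were still below the V71 NDF arrays. Without moderation of the variance the calls in DF numbered 3, those of AURKA, KIF2C and KIF20A. Without regard to the fold, 48 members were higher in V71 DF at an adjusted p under 0.05 by limma, where 690 of all 18377 genes were. For 19 of the 22 members without a call the 95% interval reached past a fold of 1.5. With 1 array left out, 28 to 36 members were called, and 21 of the 36 genes kept their call whichever array was left out. The other 15 were BUB1B, CCNA2, CDC25B, CDCA2, CENPI, DEPDC1, KIF4A, KIFC1, NUF2, NUSAP1, PBK, PLK1, SGO2, SPC25 and TTK, whose differences were then 0.49 to 0.90 with adjusted p of 0.0299 to 0.132. PLKO DF replicate 1 was needed for 12 of these calls, V71 DF replicate 1 for 9, V71 DF replicate 2 for 5 and PLKO DF replicate 2 for 1. In PLKO DF replicate 2 was the higher array for 42 of the 58 members, and in V71 DF replicate 1 was the higher for 42 as well.

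**Figure D3:**
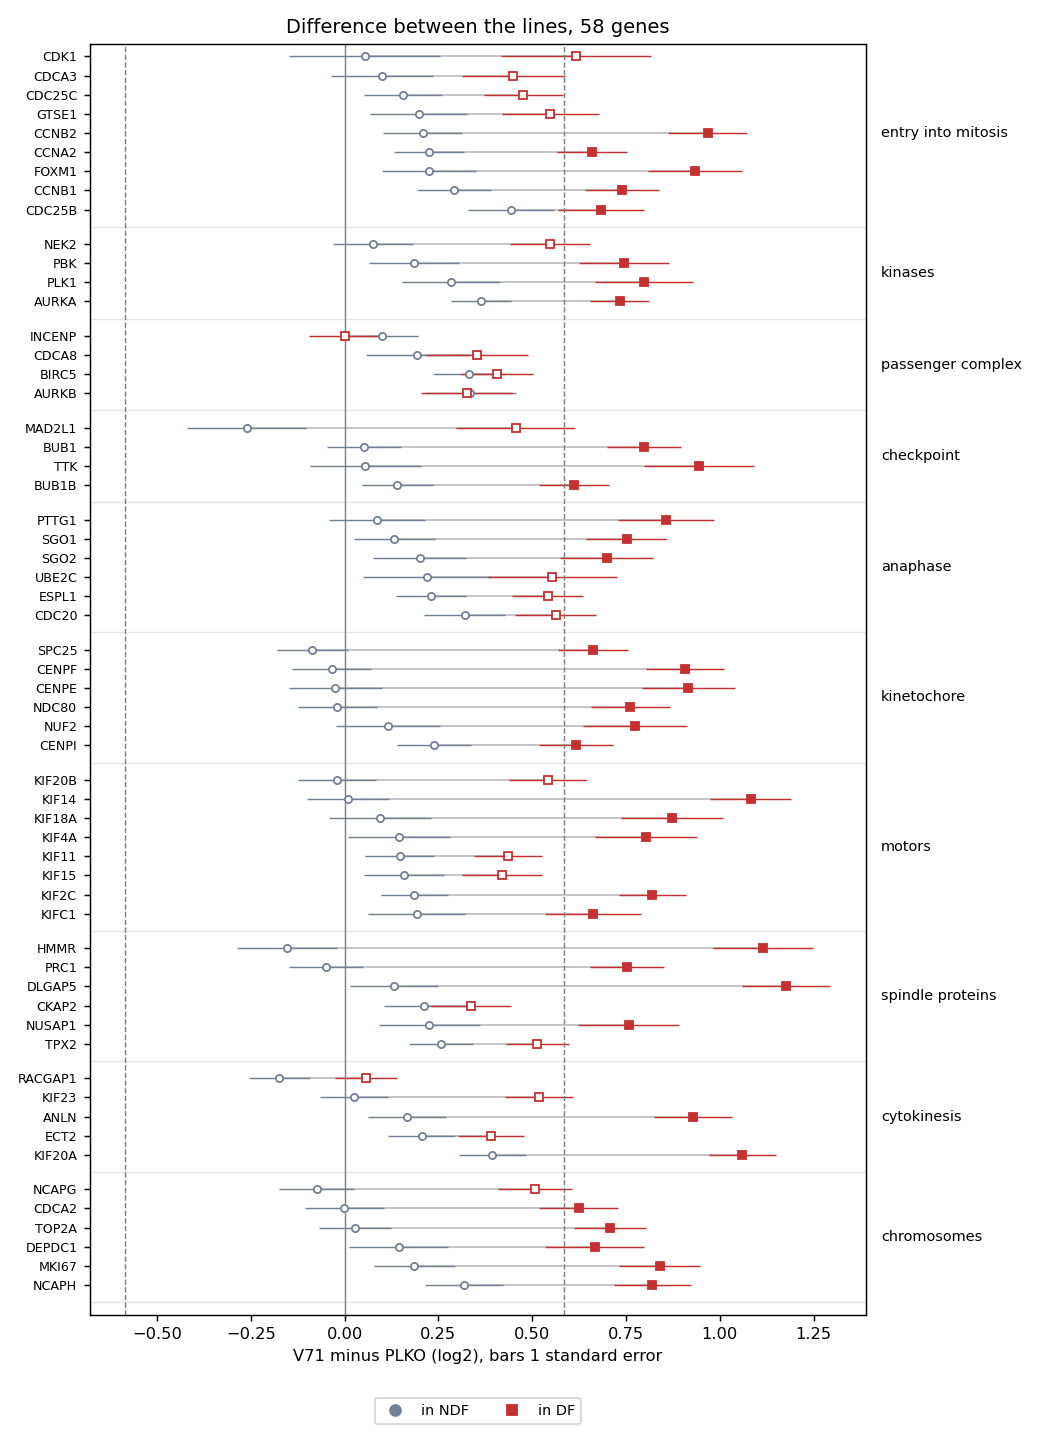
Difference between the lines (V71 minus PLKO, log2, x axis) of the 58 members in NDF (grey circles) and in DF (red squares), grouped by role, with bars of 1 standard error. Filled symbols were called and dashed lines mark a fold of 1.5; 36 of the DF squares are filled and none of the NDF circles.

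Among the 9 genes of entry into mitosis, all fell in PLKO and 8 in V71, and 5 were higher in V71 in DF. CCNB1 encodes cyclin B1, the partner of CDK1. Its log2 values were 8.77 and 8.73 in PLKO NDF, 6.73 and 6.96 in PLKO DF, 9.02 and 9.07 in V71 NDF and 7.65 and 7.52 in V71 DF. The DF arrays of V71 lay between those of PLKO DF and the NDF arrays, and V71 DF exceeded PLKO DF by 0.74 (standard error 0.10, adjusted p = 0.00265). Cyclin B2 (CCNB2) measured 7.59 and 7.60 before and 5.28 and 5.24 after differentiation in PLKO, and 7.65 and 7.95 before and 6.21 and 6.25 after it in V71, with a difference in DF of 0.97 (standard error 0.11, adjusted p = 0.000846). CDK1, the kinase itself, stood at 6.93 and 7.04 in PLKO NDF, 4.50 and 5.04 in PLKO DF, 7.33 and 6.76 in V71 NDF and 5.35 and 5.42 in V71 DF. Its replicates were the most scattered of all members in V71 NDF and in PLKO DF, and the difference in DF, 0.62 (adjusted p = 0.137), was not called. CCNA2, the cyclin of S phase and early mitosis, changed by -2.01 in PLKO and -1.58 in V71 upon differentiation, and was 0.66 (adjusted p = 0.00372) higher in V71 DF.

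FOXM1, the transcription factor that drives the G2 program, gave 7.70 and 7.55 in PLKO NDF, 5.44 and 5.73 in PLKO DF, 7.74 and 7.96 in V71 NDF and 6.59 and 6.45 in V71 DF. It fell to 24.3% of its NDF level in PLKO and to 39.7% in V71, and V71 DF exceeded PLKO DF by 0.93 (standard error 0.12, adjusted p = 0.00258). Of the phosphatases that activate CDK1, CDC25C changed by -1.33 in PLKO and -1.01 in V71, and CDC25B by -0.78 and -0.54. CDC25B thus had the smallest change of this group in both lines. GTSE1, a microtubule-associated protein of G2, and CDCA3, which promotes mitotic entry, both fell in both lines, and their differences in DF, 0.55 (adjusted p = 0.0429) and 0.45 (adjusted p = 0.112), were not called.

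All 4 mitotic kinases fell in both lines and 3 were higher in V71 DF. PLK1, which drives entry, spindle assembly and exit, had log2 values of 8.001 and 7.91 in PLKO NDF, 5.50 and 5.70 in PLKO DF, 8.08 and 8.40 in V71 NDF and 6.52 and 6.27 in V71 DF. That is a change of -2.36 (standard error 0.13, adjusted p = 3.45e-06) in PLKO and -1.84 (standard error 0.13, adjusted p = 1.91e-05) in V71. AURKA, the kinase of centrosomes and spindle poles, measured 6.93 and 6.94 before and 4.86 and 4.89 after differentiation in PLKO, and 7.27 and 7.33 before and 5.63 and 5.58 after it in V71, and its difference of 0.73 (standard error 0.08, adjusted p = 0.000816) in DF lost its call at a threshold of 2-fold alone among the settings tried. PBK, a mitotic kinase, changed by -2.23 and -1.67 in PLKO and V71 and NEK2, a centrosome kinase, by -1.80 and -1.33. In DF, PBK was higher in V71, at 0.74 (adjusted p = 0.0068), and NEK2 stood at 0.55 (adjusted p = 0.0181), a fold under 1.5.

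The chromosomal passenger complex showed no called difference between the lines. AURKB is its kinase, INCENP its scaffold, and BIRC5 (survivin) and CDCA8 (borealin) target it to the centromere. AURKB measured 6.95 and 7.09 in PLKO NDF, 5.41 and 5.75 in PLKO DF, 7.40 and 7.31 in V71 NDF and 5.97 and 5.84 in V71 DF. Its change was -1.44 in PLKO and -1.45 in V71, and the difference between these changes was -0.01 with a 95% interval of -0.39 to 0.37. BIRC5 had log2 values of 6.83 and 6.94 before and 5.44 and 5.25 after differentiation in PLKO, and 7.21 and 7.22 before and 5.81 and 5.69 after it in V71, and a difference in DF of 0.41 (adjusted p = 0.0425), a fold under 1.5. The other row of BIRC5, between 2.79 and 3.22 on all arrays, changed by -0.30 in PLKO (adjusted p = 0.0577) and by -0.10 in V71 (adjusted p = 0.58), and was called in neither. CDCA8 fell by 1.47 in PLKO and by 1.31 in V71. INCENP, at 6.84 and 6.85 in PLKO NDF, 6.35 and 6.23 in PLKO DF, 6.84 and 7.05 in V71 NDF and 6.32 and 6.26 in V71 DF, changed by -0.56 (adjusted p = 0.00453) and -0.65 (adjusted p = 0.00172), the smallest change of all members in PLKO, and its call in V71 ends without V71 NDF replicate 3, at -0.55 (adjusted p = 0.0155). For the 4 genes the intervals of the difference in DF were 0.05 to 0.60 for AURKB, 0.19 to 0.62 for BIRC5, 0.05 to 0.66 for CDCA8 and -0.22 to 0.22 for INCENP, so a fold of 1.5 lay within the first 3.

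The spindle checkpoint genes fell in both lines, all 4 of them, and 3 were higher in V71 DF. BUB1, a checkpoint kinase of the kinetochore, had values of 7.53 and 7.38 in PLKO NDF, 5.28 and 5.25 in PLKO DF, 7.61 and 7.40 in V71 NDF and 6.09 and 6.04 in V71 DF. The NDF arrays of the lines overlapped and the DF arrays stood 0.80 apart (adjusted p = 0.00173). TTK, the kinase that starts the checkpoint signal, measured 6.86 and 7.09 before and 4.43 and 4.75 after differentiation in PLKO, and 7.21 and 6.85 before and 5.57 and 5.49 after it in V71, with a difference in DF of 0.94 (standard error 0.15, adjusted p = 0.00586). BUB1B (BUBR1), which holds CDC20 inactive, was higher in V71 DF by 0.61 (adjusted p = 0.00545). MAD2L1 (MAD2), another CDC20 inhibitor, was -0.26 in NDF and 0.46 in DF for V71 minus PLKO, with adjusted p of 0.569 and 0.166, and neither was called.

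Of the 6 anaphase genes all fell in both lines, and PTTG1, SGO1 and SGO2 were higher in V71 DF. PTTG1 (securin), the inhibitor of separase, gave 6.67 and 6.67 in PLKO NDF, 4.40 and 4.29 in PLKO DF, 6.93 and 6.58 in V71 NDF and 5.32 and 5.07 in V71 DF. Its near copies PTTG2 and PTTG3P have rows of their own, with values from 1.97 to 2.83 on the 8 arrays. The shugoshins SGO1 and SGO2 protect cohesion at the centromere, and their differences in DF were 0.75 (adjusted p = 0.004) and 0.70 (adjusted p = 0.0113). CDC20, the activator of the anaphase-promoting complex, and UBE2C, its ubiquitin-conjugating enzyme, changed by -1.63 and -1.63 in PLKO and by -1.39 and -1.30 in V71. ESPL1 (separase), which cleaves cohesin, changed by -1.71 and -1.39. The differences of these 3 in DF, 0.56 (adjusted p = 0.0176), 0.55 (adjusted p = 0.118) and 0.54 (adjusted p = 0.0103), were not called.

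Kinetochore genes differed between the lines in DF more often than any other group, with all 6 measured members higher in V71 and all 6 lower upon differentiation in both lines. This order of groups was not tested. CENPF, a large kinetochore protein of G2 and mitosis, had log2 values of 9.34 and 9.22 in PLKO NDF, 6.73 and 6.98 in PLKO DF, 9.30 and 9.19 in V71 NDF and 7.78 and 7.74 in V71 DF. The lines overlapped in NDF and stood 0.91 apart in DF. CENPE, the kinesin that moves chromosomes to the spindle equator, measured 5.64 and 5.84 before and 3.16 and 3.13 after differentiation in PLKO, and 5.89 and 5.53 before and 4.10 and 4.02 after it in V71. Its PLKO DF values lie close to the lower quartile of all rows, which was at most 3.06 on these arrays, and the other groups lie well above it. The NDC80 complex binds microtubules, and its measured subunits NDC80, NUF2 and SPC25 differed in DF by 0.76 (adjusted p = 0.00308), 0.77 (adjusted p = 0.0118) and 0.66 (adjusted p = 0.0037). CENPI, of the inner kinetochore, stood at 0.62 (adjusted p = 0.00675).

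Spindle motors fell in both lines, 8 of 8, and 5 were higher in V71 DF: KIF14, KIF18A, KIF2C, KIF4A and KIFC1. KIF14, a kinesin of late mitosis, had values of 7.14 and 6.97 in PLKO NDF, 4.83 and 5.11 in PLKO DF, 7.07 and 7.07 in V71 NDF and 6.08 and 6.03 in V71 DF. The NDF arrays of the lines overlapped, and it was 1.08 (standard error 0.11, adjusted p = 0.000506) higher in V71 DF, the largest difference among the motors. KIF2C (MCAK), which depolymerizes microtubules at the centromere, measured 6.87 and 6.70 before and 4.67 and 4.64 after differentiation in PLKO, and 7.01 and 6.93 before and 5.50 and 5.45 after it in V71, with a difference in DF of 0.82 (standard error 0.09, adjusted p = 0.000855). KIF18A, which damps chromosome oscillations, and KIF4A, a motor of chromosome arms and the midzone, stood at 0.87 (adjusted p = 0.00562) and 0.80 (adjusted p = 0.00891). KIF4A shares another row with its near copy KIF4B, which was not used. The motor KIF11 (Eg5), which separates the poles, and KIF15, its backup, had differences in DF of 0.44 (adjusted p = 0.0259) and 0.42 (adjusted p = 0.0572), and KIF20B, a kinesin of the midzone, one of 0.54 (adjusted p = 0.0162). These 3 were not called.

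HMMR and DLGAP5 had the strongest changes of the spindle proteins. HMMR, a spindle pole protein and hyaluronan receptor, measured 6.70 and 6.98 in PLKO NDF, 3.56 and 3.74 in PLKO DF, 6.83 and 6.53 in V71 NDF and 4.84 and 4.69 in V71 DF. The fall was 9.11-fold in PLKO and 3.78-fold in V71. DLGAP5 (HURP), which stabilizes kinetochore fibers, gave 7.72 and 7.88 before and 4.79 and 5.09 after differentiation in PLKO, and 8.02 and 7.85 before and 6.15 and 6.08 after it in V71, which leaves 13.7% and 28.3%. PRC1, which bundles midzone microtubules, and NUSAP1, a microtubule stabilizer near chromosomes, were higher in V71 DF by 0.75 (adjusted p = 0.0024) and 0.76 (adjusted p = 0.0117). TPX2, the activator of AURKA, at 0.51 (adjusted p = 0.00781), and CKAP2, a microtubule protein, at 0.34 (adjusted p = 0.127), were not called in DF.

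Of the 5 cytokinesis genes all fell in PLKO and 4 in V71, and 2 were higher in V71 DF. KIF20A (MKLP2), a kinesin of the cleavage furrow, measured 7.27 and 7.29 in PLKO NDF, 4.69 and 4.71 in PLKO DF, 7.66 and 7.69 in V71 NDF and 5.86 and 5.67 in V71 DF. In NDF it was 0.39 (standard error 0.09, adjusted p = 0.056) higher in V71, which was not called. Its difference of 1.06 (standard error 0.09, adjusted p = 0.000172) in DF was the only one of the 36 calls in DF that held under every setting tried. ANLN (anillin), the scaffold of the contractile ring, stood at 0.93 (standard error 0.10, adjusted p = 0.00102). RACGAP1, a subunit of centralspindlin, was at 8.09 and 8.05 before and 7.43 and 7.38 after differentiation in PLKO, and 7.88 and 7.90 before and 7.51 and 7.41 after it in V71. It kept 63.2% of its level in PLKO and 74.2% in V71, and the lines overlapped in DF. Its partner KIF23 and ECT2, which is needed for cleavage, fell in both lines, with differences in DF of 0.52 (adjusted p = 0.011) and 0.39 (adjusted p = 0.0363), folds under 1.5.

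Of 6 genes of chromosome structure and related factors all fell in both lines and 5 were higher in V71 DF. MKI67 encodes Ki-67, the coat of mitotic chromosomes used as a marker of cycling cells. Its log2 values were 8.34 and 8.14 in PLKO NDF, 6.03 and 6.22 in PLKO DF, 8.34 and 8.51 in V71 NDF and 6.98 and 6.95 in V71 DF. The change was -2.11 (standard error 0.11, adjusted p = 2.35e-06) in PLKO and -1.46 (standard error 0.11, adjusted p = 2.3e-05) in V71, and the difference in DF was 0.84 (standard error 0.11, adjusted p = 0.00202). TOP2A, the topoisomerase that untangles sister chromatids, measured 9.06 and 9.09 before and 6.67 and 6.86 after differentiation in PLKO, and 9.17 and 9.03 before and 7.45 and 7.49 after it in V71, with a difference in DF of 0.71 (standard error 0.10, adjusted p = 0.00279). NCAPH and NCAPG are subunits of condensin I, and stood at 0.82 (adjusted p = 0.0019) and 0.51 (adjusted p = 0.0191) in DF, the latter a fold under 1.5. CDCA2, which recruits a phosphatase to chromatin at mitotic exit, and DEPDC1, a gene of mitotic progression, were higher in V71 DF by 0.62 (adjusted p = 0.00877) and 0.67 (adjusted p = 0.0196).

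**Figure D4:**
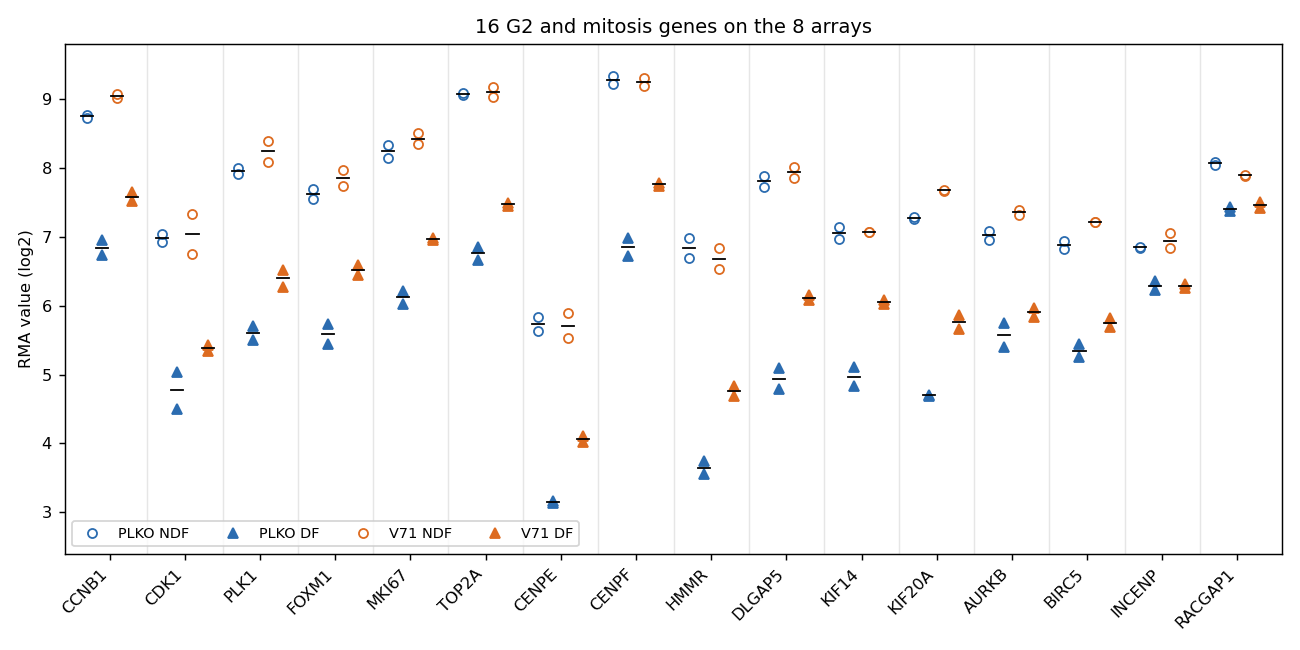
RMA values (log2, y axis) of 16 members (x axis) on each of the 8 arrays. Open circles are NDF and filled triangles DF, PLKO is blue and V71 orange, and a black bar is the mean of a group's 2 arrays. Each gene is read on its own, and the orange triangles lie above the blue ones for all but INCENP and RACGAP1.

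Whether the fall upon differentiation differed between the lines was tested by the interaction, the change in V71 minus the change in PLKO. It was above 0 for 56 of 58 members, with a median of 0.53 on the log2 scale against -0.005 over all genes, and 10 members were called, all with the smaller fall in V71, where 1.09% of all genes were called in this direction and 0.305% in the other. The 10 genes were HMMR, at 1.27 (standard error 0.19, adjusted p = 0.0137), KIF14, at 1.07 (standard error 0.15, adjusted p = 0.0106), DLGAP5, CENPF, CENPE, PRC1, NDC80, SPC25, BUB1 and KIF20A. They include 4 of the 6 measured kinetochore genes and 3 of the 6 spindle proteins, and none of the genes of entry, the mitotic kinases, the passenger complex, the anaphase group or the chromosomes. This split follows the thresholds, and a difference between the groups was not tested. TTK, PTTG1, ANLN and CCNB2 were not called, at 0.89, 0.77, 0.76 and 0.76. SPC25, BUB1 and KIF20A were called at 0.75, 0.75 and 0.67. At an unadjusted p under 0.05 by limma, all 6 chromosome genes and all 4 mitotic kinases were above 0, and 0 of 4 genes of the passenger complex. For 40 of the 48 members without a call the 95% interval of the interaction reached past a fold of 1.5. At an unadjusted p under 0.05, 41 members were above 0 and none below, against 6.32% of all genes above 0.

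The calls of the interaction depended on single arrays. Without moderation of the variance none of the 10 was called, and with the replicate number as a block 3 were. Of the 10, none kept its call without V71 DF replicate 1, and 1 kept it without PLKO NDF replicate 2, without PLKO NDF replicate 3 or without PLKO DF replicate 1. Without V71 NDF replicate 3, 2 of the 10 were still called, without V71 DF replicate 2, 5, and without V71 NDF replicate 2 or PLKO DF replicate 2, 6 each. Counting members called only in such a fit, the totals were 3 without V71 NDF replicate 3, 6 without V71 DF replicate 2 and 8 without PLKO DF replicate 2. The median interaction stayed between 0.46 and 0.62 over these fits. Of the 34 measured members with TTTGAA in a promoter window 7 had an interaction call, and of the 15 without these exact letters 3 had. The median change in PLKO was -1.97 and -1.95 in these sets and the median difference in DF 0.66 and 0.74, given as a description. The letters TTCGAA, also searched for, occurred in 6.56% of the members' promoters and 1.45% of all, and were not counted in this split.

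Other genes of G2 and mitosis, from a list of 102 of which 98 were measured, are given for comparison. In PLKO 61 fell and none rose, with a median change of -0.84, and in V71 56 fell, with a median of -0.70, while CCNA1, the cyclin A of the germ line, rose by 1.27 (standard error 0.18, adjusted p = 0.00128). In DF 18 of the 98 were higher in V71 and none was lower, with a median difference of 0.25. ASPM, a spindle pole protein, had log2 values of 8.14 and 8.07 in PLKO NDF, 5.43 and 5.73 in PLKO DF, 8.29 and 8.11 in V71 NDF and 6.71 and 6.60 in V71 DF, and was the only one with an interaction call, at 0.98 (standard error 0.16, adjusted p = 0.025). Subunits of the anaphase-promoting complex and of cohesin belong to this list as well.

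Of 55 measured S phase genes 46 fell in PLKO and 37 in V71, with median changes of -0.92 and -0.71. In DF 7 were higher in V71, with a median difference of 0.39, and none had an interaction call by limma, 19 being above 0 at an unadjusted p under 0.05. TYMS, which makes thymidylate, was 0.80 (standard error 0.09, adjusted p = 0.000799) higher in V71 DF. Among 23 measured regulators, MYBL2 (B-MYB), which joins MuvB in dividing cells, had values of 7.80 and 7.74 before and 6.22 and 6.26 after differentiation in PLKO, and 7.87 and 8.11 before and 6.94 and 6.85 after it in V71, and a difference in DF of 0.65 (standard error 0.10, adjusted p = 0.00492). It was the only regulator called between the lines. Of the MuvB core, LIN9 fell in PLKO, at -0.84 (adjusted p = 0.000511), while LIN54, at -0.52 (adjusted p = 0.00254), LIN37, at 0.27 (adjusted p = 0.1), and LIN52, at 0.02 (adjusted p = 0.931), were not called. RBL1 (p107) fell in PLKO, at -1.05 (adjusted p = 0.000122), and in V71, at -0.93 (adjusted p = 0.000314). RBL2 (p130) and E2F4, the DREAM subunits of resting cells, stood at 0.18 and -0.14 in PLKO, with no call.

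**Figure D5:**
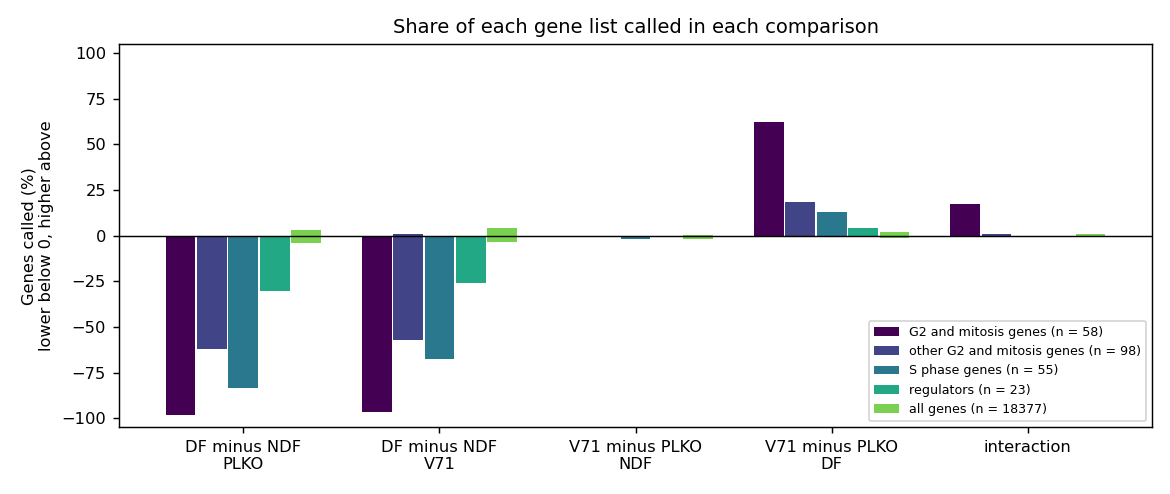
Share of genes called (percent, y axis; higher above 0, lower below) in each comparison (x axis) for the 58 members, other G2 and mitosis genes, S phase genes, regulators and all 18377 genes. The members had 57 and 56 of 58 called lower upon differentiation, and 36 called higher in V71 in DF.

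Markers of the substrate-adherent (S-type) neuroblastoma cell, which cultures of this line can hold, were set beside these results. In DF, where the members differed, 0 of 12 S-type markers were called between the lines by limma. At an unadjusted p under 0.05, 3 were lower in V71 and 0 higher, and 1 had an adjusted p under 0.05 with a fold under 1.5. The mean log2 level of the 12 was 4.28 to 4.36 in PLKO and 4.18 to 4.31 in V71. In NDF 3 of 12, VIM, FN1 and SNAI2, were lower in V71, with mean levels of 4.71 to 4.72 in PLKO and 4.34 to 4.43 in V71. The same 3 were lower upon differentiation in PLKO, at -1.74 for VIM, -1.31 for FN1 and -1.46 for SNAI2. In V71 0 of 12 were called upon differentiation by limma. There 4 had an unadjusted p under 0.05, and 2 an adjusted p under 0.05 with a fold under 1.5. The interaction was called for 2 of the 12, VIM at 1.44 and SNAI2 at 1.11, above 0 as for the G2 and mitosis genes. These 2 markers were called between the lines in NDF and not in DF. The members with an interaction call were called in DF and not in NDF. Of 11 noradrenergic markers CHGB was higher and DBH lower in V71 DF, and the mean level was 7.65 to 7.71 in PLKO and 7.87 in V71. In NDF HAND1, CHGA and CHGB were higher in V71, with mean levels of 7.66 to 7.76 in PLKO and 8.02 to 8.13 in V71, and the interaction was called below 0 for HAND1, at -0.79, and CHGA, at -0.87. Upon differentiation 1 of the 11 rose and 1 fell in PLKO, and 1 rose and 4 fell in V71. Their part in the differences of the G2 and mitosis genes was not tested. The gap between replicates of a group had a median over the members of 0.11 to 0.18, against 0.08 to 0.12 over all genes.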

How the data were processed

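Total RNA of 8 samples was hybridized to Affymetrix Human Gene 1.0 ST arrays. Normalization and summarization were done by the authors (RMA, Partek 6.5), and their deposited log2 values were used as given. The number of arrays, 2 in each of 4 groups, limits the precision. Gene symbols came from the platform annotation, in which 19310 of 28869 rows carry 1 symbol, 1752 several and 7807 none. For the 685 genes with several rows the row with the highest mean was taken. Groups follow the title codes, and nothing but the numbers in the titles pairs the samples.

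All rows were fitted with 4 group means in limma 3.58.1 (R 4.3.3), with eBayes (4 residual and 5.43 prior degrees of freedom), and p was adjusted over all 28869 rows. Thresholds follow the methods, which used analysis of variance. The fit was tested on simulated data of 28869 rows: for V71 minus PLKO in DF it recovered 40 of 50 rows changed by a fold of 1.8 and 44 of 50 changed by 2, and for the interaction 25 and 28 of 50. False calls numbered 2 and 6. The simulated noise was independent between rows, so shifts that genes share on an array were not covered. The members and lists were chosen with earlier results of these data known. All members could be named, and of other lists the 4 largest calls of each contrast, MYBL2, the MuvB and DREAM subunits and the markers; CCNA1 was named after its value was seen. Alternatives were other priors, normalizations, filters, fold thresholds and rows, leaving out each array, and the replicate number as a block. Promoters came from RefSeq tables of GRCh38.p14. The gene targeted by the shRNA is not reported here.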

Additional observations from a re-analysis of the deposited data

Results flagged for a closer look

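A set of 10 members changed to a different extent in the 2 lines upon differentiation, by the interaction term of the model. The interaction, V71 minus PLKO on the log2 scale, was 1.27 for HMMR, 1.07 for KIF14, 1.05 for DLGAP5, 0.94 for CENPF, 0.94 for CENPE, 0.80 for PRC1, 0.78 for NDC80, 0.75 for SPC25, 0.75 for BUB1 and 0.67 for KIF20A. Adjusted p ran from 0.0106 for KIF14 to 0.0491 for KIF20A. Each of the 10 lost its call in at least 1 fit with an array left out.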

How the results depend on the processing

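The fall upon differentiation kept 57 or 58 members called in PLKO and 55 to 57 in V71 with any 1 array left out, and the counts stayed within 1.5 times under every alternative. In NDF no member was called except 1 higher member, AURKA, with no fold threshold. In DF 48 members were higher in V71 with no fold threshold. For V71 minus PLKO in DF, against 36 higher members, 3 were called without moderation, 4 at a fold of at least 2, and 28 to 36 with an array left out, of which 24 to 36 were among the 36. For the interaction, against 10, 0 were called without moderation, 3 at a fold of at least 2, 3 with the replicate block, and 0 to 8 with an array left out, of which 0 to 6 were among the 10. Median differences kept their direction and moved by less than the residual SD of 0.0996 under every alternative to which a median applies. Where an array was left out, the lone array of its group was assumed to vary like the others. Deviations of samples with equal numbers correlated at -0.18 in NDF and 0.19 in DF. With 2 arrays in a group these values cannot show whether equal numbers pair samples, and pairs between NDF and DF were not compared. The main fit left the numbers out, and the block changed no other count by over 1.5 times. With the numbers of V71 NDF crossed, a setting chosen after seeing the data, the interaction calls numbered 5. No call of a member reversed.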
